A study of Mus musculus with 18 samples.

Results

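The alpha and beta T cell receptor genes are the members described here. They were chosen by symbol (Trav, Traj, Trac, Trbv, Trbd, Trbj or Trbc) and by a sum of at least 50 read counts over all 18 libraries, which kept 90 of 242 annotated alpha and beta genes, out of 49585 genes in the count table. The libraries are bulk RNA-Seq of CD45+ leukocytes from Kaede mice aged 6 to 10 weeks, in 6 groups of 3 libraries, each made from cells pooled from several mice. Kaede is a photoconvertible protein that stays red in cells that were in the tissue when it was illuminated, so that red cells found later in the draining lymph node had left that tissue. Joint nonmigrated and skin nonmigrated cells came from the inflamed ankle joint and the inflamed ear pinna, and joint migrated and skin migrated cells came from the lymph nodes that drain them. Before challenge, the inflamed recipients had been given in vitro polarized Vα2+Vβ5+ Th1 cells from OT-II CD45.1 mice and were immunized with 100 μg ovalbumin in complete Freund's adjuvant. They were challenged 10 days later with 100 μg heat-aggregated ovalbumin in the footpad or ear pinna. Tissue was photoconverted on day 3 after challenge and cells were taken 24 hours later. The joint node and skin node steady-state groups are labelled as leukocytes that migrated from joint or ear to lymph node, with no mention of inflammation. Titles of the former carry PBS and KG and those of the latter Naive, and the labels do not say whether these mice also received transferred cells or immunization, or which Kaede colour was sorted. The donors are not described as carrying Kaede, so it is not known whether transferred cells fell in the gate of the inflamed groups. That gate took viable Kaede red+ cells of any lineage, so the receptor genes below come from a mixture of leukocytes.

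The alpha and beta chains form the antigen receptor of conventional T cells. In each developing T cell a variable (V) and a joining (J) segment, with a diversity (D) segment in the beta chain, are joined to make 1 exon, which is then spliced to a constant (C) segment; Trac is the alpha constant gene, and Trbc1 and Trbc2 are the alternative beta constant genes. The constant genes therefore report how much receptor RNA a library holds, whereas the V genes report how it is divided among receptors with different binding regions. V genes whose names carry dv can be joined to either the alpha or the delta chain.

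Assigned counts per library ran from 19239531 to 43814403. The 6 T cell marker genes (Cd3d, Cd3e, Cd3g, Cd5, Cd6, Lat) were detected in every group, with summed levels of 133 to 253 CPM (counts per 1000000, scaled by the trimmed mean of M values, TMM) in the joint nonmigrated libraries and 1233 to 1723 CPM in the joint migrated ones. In skin they were 211 to 634 CPM before and 1228 to 1322 CPM after migration. Genes of other lineages moved in the same comparisons. The 6 neutrophil markers summed to 4649 to 14363 CPM in joint nonmigrated and 22.1 to 56.8 CPM in joint migrated cells, and to 890 to 1676 CPM in skin nonmigrated and 2.55 to 9.71 CPM in skin migrated cells. The 4 macrophage markers summed to 3292 to 4864 and 29.3 to 76.3 CPM in the same joint groups and to 910 to 3184 and 54.7 to 109 CPM in the skin groups. The 2 keratinocyte markers, Krt5 and Krt14, were at 117, 229 and 20.5 CPM in the skin nonmigrated libraries, under 1 CPM in the other inflamed libraries and at 0 in all 6 steady-state libraries. In a bulk library, fewer T cells and less receptor RNA per T cell cannot be told apart, and the part of these other lineages in the receptor results was not tested. Skin nonmigrated replicate 3 stood apart from the other 2 libraries of its group in all of these sums, with the lowest T cell and keratinocyte levels and the highest macrophage level.

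All constant genes passed the rule (Trac, Trbc1 and Trbc2), as did 64 of 128 Trav genes and 23 of 35 Trbv genes, whereas none of 60 Traj, 14 Trbj or 2 Trbd genes did. Of the 87 V members, 85 were annotated as functional and 2 as pseudogenes (Trav8-2 and Trbv24). Just inside the limit lay Trbv21 with 51 counts and Trav9d-1 with 104, and just outside lay Trav11n with 49 and Trav12n-3 with 39. J genes collected 49 counts (alpha) and 85 counts (beta) over all 18 libraries; their exons are 29 to 72 bp long, shorter than the 100 bp reads. Near-identical V copies were another limit of the table. Among the 46 Trav genes with no count at all, 37 had no stretch of 100 bases that was not also found in another receptor gene, against 0 of the 64 Trav members, for which a median of 87.04% of such stretches were distinct. All Trbv genes were fully distinct by this measure. Trbc1 and Trbc2, which are near copies of each other, were distinct over 71.8% and 69.1% of their length.

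The germline V exons of the members that the usage results turn on are printed in the 5′ to 3′ direction from the plus strand of GRCm38 (mm10), from the annotated exon that encodes the variable domain. Capitals mark the stretch from the codon of the conserved cysteine to the end of the exon, which is where the D or J segment is joined and the antigen-binding loop begins. Trbv2 (chr6:41047701-41047995) is the beta V gene whose share differed most between groups. Trbv12-1 (chr6:41113775-41114067) and Trbv12-2 (chr6:41119072-41119364) encode Vβ5, and Trav14-1 (the last 300 of 312 bases, chr14:53554259-53554558) belongs to the family that encodes Vα2, the pair carried by OT-II cells. Trav13-4-dv7 (chr14:53757643-53757921) and Trav3-1 (chr14:52580923-52581213) are the alpha V genes that were higher in migrated than in steady-state cells at both sites.
Trbv2: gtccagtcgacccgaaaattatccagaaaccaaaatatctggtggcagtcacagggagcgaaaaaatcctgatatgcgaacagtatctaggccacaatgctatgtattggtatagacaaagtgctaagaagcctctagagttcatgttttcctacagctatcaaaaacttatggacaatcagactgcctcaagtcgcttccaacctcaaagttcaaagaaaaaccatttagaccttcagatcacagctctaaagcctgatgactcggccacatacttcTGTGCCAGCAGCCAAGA
Trbv12-1: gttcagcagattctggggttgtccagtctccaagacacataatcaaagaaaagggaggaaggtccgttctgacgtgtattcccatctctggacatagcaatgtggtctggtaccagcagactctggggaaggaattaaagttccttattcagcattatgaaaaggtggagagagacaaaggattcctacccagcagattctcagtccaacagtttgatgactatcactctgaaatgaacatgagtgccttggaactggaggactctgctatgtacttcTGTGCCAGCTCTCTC
Trbv12-2: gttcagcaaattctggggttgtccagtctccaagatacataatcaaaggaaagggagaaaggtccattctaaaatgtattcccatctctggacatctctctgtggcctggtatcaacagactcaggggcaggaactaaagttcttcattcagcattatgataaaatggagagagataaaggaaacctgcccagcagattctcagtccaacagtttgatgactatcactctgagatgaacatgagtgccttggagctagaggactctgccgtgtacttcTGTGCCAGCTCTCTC
Trav14-1: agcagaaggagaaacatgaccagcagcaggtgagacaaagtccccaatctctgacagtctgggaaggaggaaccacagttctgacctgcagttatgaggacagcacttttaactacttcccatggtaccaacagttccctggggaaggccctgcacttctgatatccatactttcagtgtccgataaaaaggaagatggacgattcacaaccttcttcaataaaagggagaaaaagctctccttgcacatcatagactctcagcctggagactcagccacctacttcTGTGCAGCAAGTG
Trav13-4-dv7: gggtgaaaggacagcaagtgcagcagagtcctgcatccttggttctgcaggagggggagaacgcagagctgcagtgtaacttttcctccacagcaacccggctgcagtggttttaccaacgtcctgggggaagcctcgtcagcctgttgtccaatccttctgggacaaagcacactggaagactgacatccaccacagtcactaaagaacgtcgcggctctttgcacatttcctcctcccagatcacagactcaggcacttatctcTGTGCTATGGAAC
Trav3-1: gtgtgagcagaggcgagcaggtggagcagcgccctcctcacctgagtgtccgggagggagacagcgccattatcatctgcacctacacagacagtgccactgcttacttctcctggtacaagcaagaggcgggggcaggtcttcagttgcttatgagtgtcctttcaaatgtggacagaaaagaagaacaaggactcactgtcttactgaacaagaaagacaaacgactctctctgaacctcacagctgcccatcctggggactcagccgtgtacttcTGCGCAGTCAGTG
The Trbv12-1 and Trbv12-2 exons were identical at 261 of 293 positions (89.1%) and shared the same capital stretch of 15 bases, so reads that cover only the junction end could not separate them.

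Total receptor RNA was low in the cells that stayed in tissue and high in those that had moved to the node. The 90 members summed to 121, 179 and 227 CPM in joint nonmigrated cells and to 1529, 1263 and 1098 CPM in joint migrated cells, a ratio of the group means of 7.38. In skin nonmigrated cells they summed to 299, 370 and 125 CPM and in skin migrated cells to 1035, 1139 and 1098 CPM, a ratio of 4.13. The migrated libraries lay above every nonmigrated library at both sites. The steady-state sums were 1164, 1209 and 1595 CPM for the joint and 1670, 1680 and 1595 CPM for the skin. Joint migrated cells overlapped with their steady-state node (means 1297 ± 218 and 1323 ± 237 CPM, SD, n = 3 each), whereas all skin migrated libraries lay below theirs (1091 ± 52.2 and 1649 ± 46.4 CPM, SD, n = 3 each). The members made up 0.0105% of assigned counts in the lowest library and 0.185% in the highest.

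**Figure D1:**
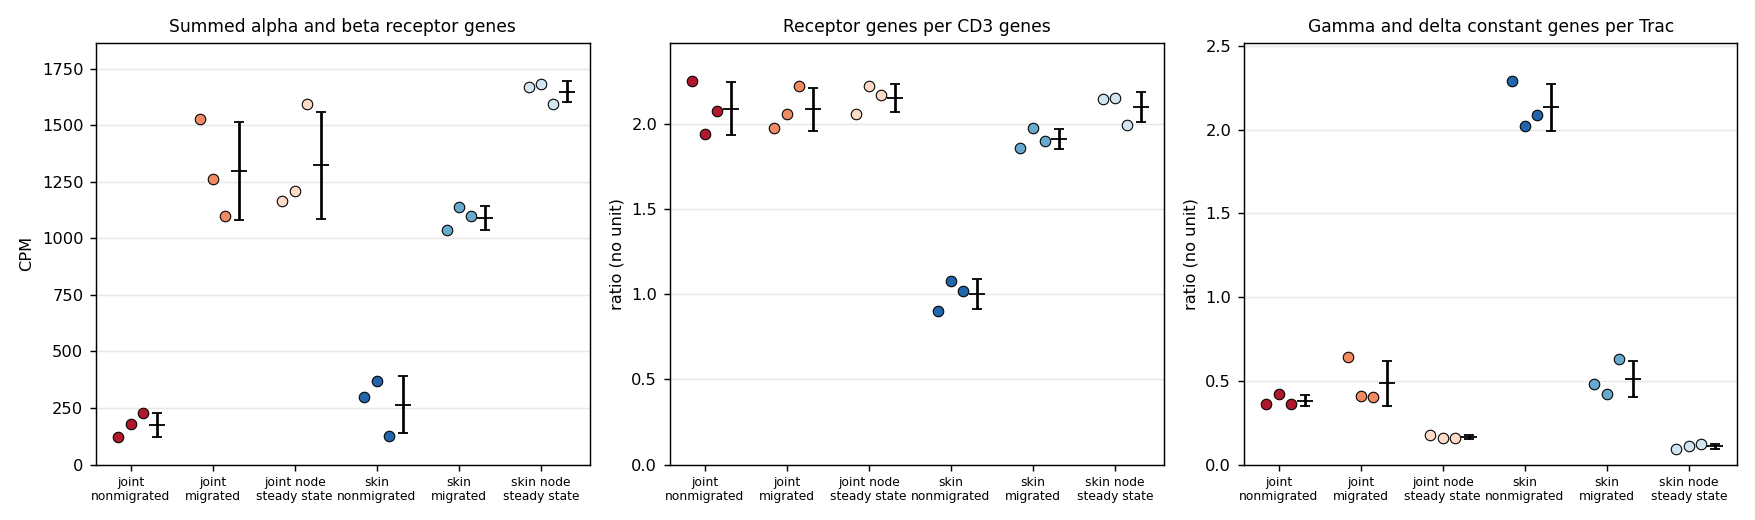
Each point is 1 library, and the bars are the group mean ± SD (n = 3). Panels show, from left to right, the summed CPM of the 90 members, that sum divided by the summed CPM of Cd3d, Cd3e and Cd3g, and the summed CPM of 4 gamma and delta constant genes divided by Trac. The nonmigrated libraries are lowest in the first panel (121 to 370 CPM), and the skin nonmigrated libraries stand apart in the other panels.

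The constant genes supplied 74.6% to 81.2% of member counts in each library. Per kilobase of exon, the highest mean levels over the 18 libraries were 429 CPM for Trbc2 (chr6:41546730-41548352), 341 CPM for Trac (chr14:54220521-54224206) and 167 CPM for Trbc1 (chr6:41538218-41539881). The highest beta V genes on this per-kilobase scale were Trbv13-2 (52.4), Trbv13-1 (34.7), Trbv15 (30.0), Trbv16 (28.5) and Trbv2 (27.7), and the highest alpha V genes were Trav14-1 (7.85), Trav13-4-dv7 (6.61), Trav12-2 (6.27), Trav16 (5.74) and Trav14n-3 (5.67). The leading alpha V genes lay well below the leading beta V genes. The alpha V counts were shared by 64 genes and the beta V counts by 23. In total, alpha V counts were also lower against their constant gene, at 13.3% to 22.8% of Trac counts per library. Beta V counts were 32.4% to 45.7% of Trbc counts. The reasons for the gap were not tested.

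In the joint, receptor genes of both chains rose in migrated cells. Of 85 members that passed the filter on low counts, 81 were called higher and 0 lower in joint migrated than in joint nonmigrated cells (edgeR quasi-likelihood F test, adjusted p under 0.05 and an absolute log2 fold change above 1). Of all 16777 genes tested, 16% were called higher, 18.4% lower and 34.3% in either direction. At an adjusted p under 0.001, 49 members were called, where 21.4% of all genes were. The called members were Trac, both Trbc genes, all 22 tested Trbv genes and 56 of 60 tested Trav genes, and the 4 that were not called were Trav6-3, Trav7-3, Trav7d-3 and Trav8d-2. The median log2 fold change of the tested members was 3.02, against 0.02 for all genes tested. The other 5 members had too few counts to be tested, and a gene with counts near 0 in nonmigrated cells could pass the filter only through the groups where it was higher.

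Trac was at 51.4, 66.5 and 91.4 CPM in joint nonmigrated and at 481, 453 and 379 CPM in joint migrated cells, a rise of 2.58 ± 0.36 on the log2 scale (SE; edgeR adjusted p = 9.2e-05). Trbc1 went from 14.9, 25.0 and 29.8 to 189, 142 and 145 CPM (log2 fold change 2.70 ± 0.37, adjusted p = 8.32e-05). Neither gene overlapped between the groups. Trbc2 went from 32.2, 48.7 and 57.8 to 494, 386 and 334 CPM (3.06 ± 0.37 on the log2 scale, adjusted p = 3.41e-05). The V genes with the smallest adjusted p were Trbv13-2, Trbv29 and Trbv15. Trbv13-2 was at 2.16, 2.34 and 3.51 CPM in nonmigrated and 31.1, 22.2 and 18.9 CPM in migrated cells, a log2 difference of 3.10 ± 0.28 (adjusted p = 4.48e-06). Trbv29 (3.28 ± 0.35) and Trbv15 (3.42 ± 0.37) rose by similar amounts. Trbv2 had the smallest log2 difference of the named beta genes, 2.30 ± 0.38 (adjusted p = 0.000326), from 2.55, 5.45 and 7.26 to 27.8, 24.7 and 26.6 CPM. Among the alpha V genes, Trav7-3 was at 0.194, 0.234 and 1.06 CPM in nonmigrated and 2.10, 1.05 and 1.499 CPM in migrated cells, groups that overlapped and did not pass (adjusted p = 0.0901).

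In the skin, 64 of 85 tested members were called higher and 0 lower in migrated than in nonmigrated cells, where 15.7% of all genes tested were called higher, 19.7% lower and 35.4% in either direction. At an adjusted p under 0.001 the count was 21 (24.7% of those tested), close to the 20.9% of all genes. The 64 members called at 0.05 were Trac, both Trbc genes, 20 of 22 Trbv genes and 41 of 60 Trav genes, and the median log2 fold change was 2.11, against 0.01 for all genes tested. Trav17 and Trav6d-5 had no count in any skin nonmigrated library, and against a floor of 3 counts over that group they were at least 4.76-fold and 4.65-fold higher in skin migrated cells; the median stayed at 2.11 with these genes at their bounds. Trac was at 109, 127 and 41.5 CPM in skin nonmigrated and at 338, 369 and 352 CPM in skin migrated cells (log2 fold change 1.80 ± 0.35 SE, edgeR adjusted p = 0.000948). Trbc2 went from 84.1, 107 and 34.5 to 315, 375 and 353 CPM (2.08 ± 0.36, adjusted p = 0.000427), and Trbc1 rose by 1.70 ± 0.36 on the log2 scale (adjusted p = 0.00167). Within the skin, the lowest level of each constant gene was that of skin nonmigrated replicate 3.

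The members with the smallest adjusted p in the skin were Trbv13-2, Trav16n and Trav21-dv12. Trbv13-2 was at 4.33, 5.36 and 2.90 CPM in nonmigrated and at 22.1, 21.6 and 23.9 CPM in migrated cells, which gave 2.30 ± 0.28 on the log2 scale (edgeR adjusted p = 3.33e-05). Trav16n rose from 0.494, 0.478 and 0.145 to 3.80, 2.85 and 2.41 CPM (2.91 ± 0.42 on the log2 scale, adjusted p = 0.000126). Trav21-dv12 rose from 0.219, 0.159 and 0.0483 to 1.58, 1.502 and 1.92 CPM (3.42 ± 0.53 on the log2 scale). In each of the 3 genes, all migrated libraries lay above all nonmigrated ones. Trav14-1 and Trav12-2 were nearer to the limit: their log2 fold changes were 1.56 ± 0.52 (adjusted p = 0.0228) and 1.40 ± 0.50 (adjusted p = 0.0319). Both calls were lost when skin nonmigrated replicate 1 or 3 or skin migrated replicate 2 or 3 was left out.

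No member was called for a different migration change in joint and skin, where 6.13% of all genes tested were called, and 11 of 85 had an unadjusted p under 0.05, against 26.3% of all genes. Leaving out skin nonmigrated replicate 3 gave 16 called members, Trac, Trbc1 and Trbc2 among them, leaving out joint nonmigrated replicate 3 gave 1, and the DESeq2 Wald test gave 4. For Trac the log2 change with migration was larger in the joint by 0.78 ± 0.48 (edgeR adjusted p = 0.324) and for Trbv13-2 by 0.80 ± 0.38 (adjusted p = 0.202). The direct comparison of joint migrated with skin migrated cells called 0 members (DESeq2 also called 0), where 1.14% of all genes were called. An unadjusted p under 0.05 was found for 1 member, against 16.5% of all genes. Joint nonmigrated cells had 7 members called lower than skin nonmigrated cells (Trbv4, Trbv13-3, Trbv15, Trbv16, Trbv29, Trav7-5 and Trav6-7-dv9), which is 8.24% of those tested and close to the 8.86% of all genes called lower (5.45% were higher and 14.3% either). At an adjusted p under 0.001 this comparison had 0 members, against 3.05% of all genes. The count at 0.05 was 0 without skin nonmigrated replicate 2 and 22 without skin nonmigrated replicate 3, and it was 4 without skin nonmigrated replicate 1 or joint nonmigrated replicate 2 and 1 without joint nonmigrated replicate 1. Inflamed skin libraries (19239531 to 22528895 assigned counts) were all shallower than inflamed joint libraries (35554698 to 43814403), and depth and site cannot be told apart.

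**Figure D2:**
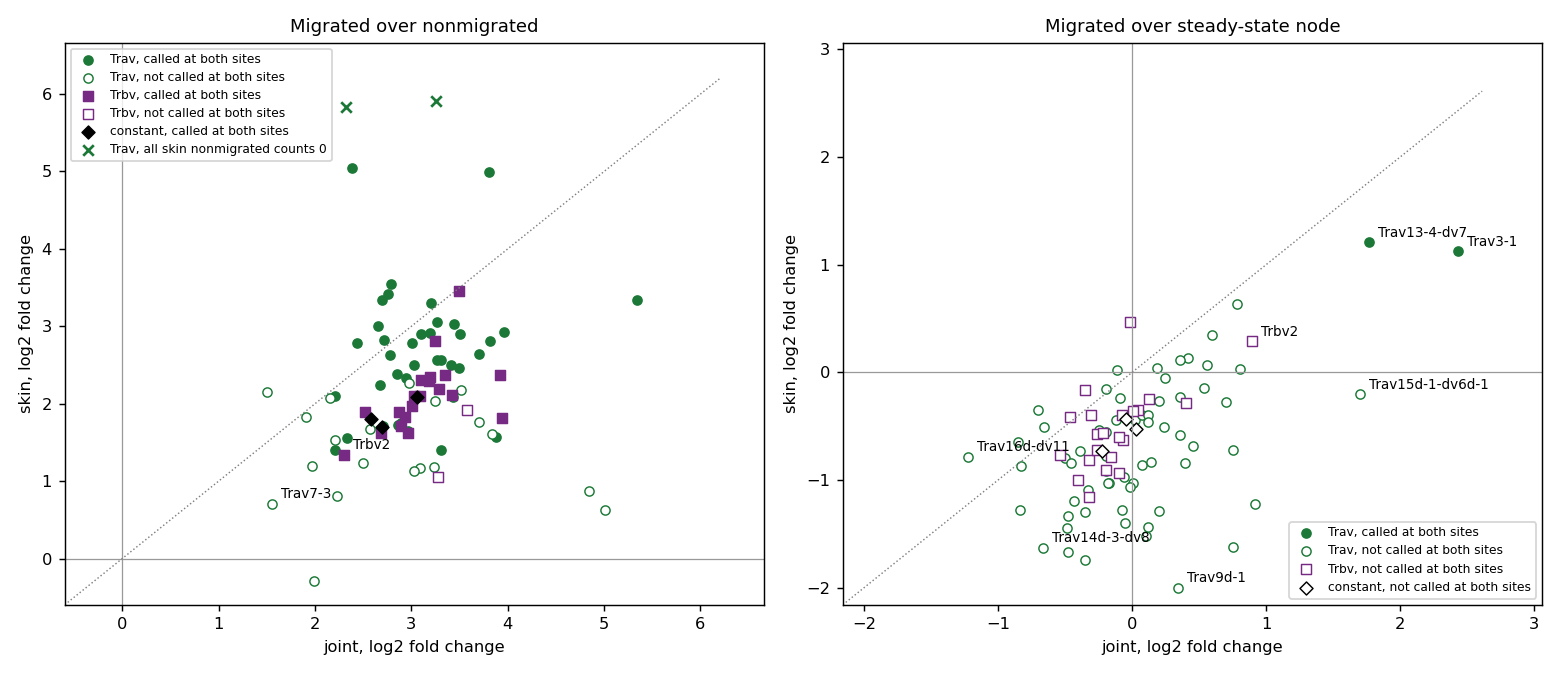
Each point is 1 member, plotted by its log2 fold change in the joint (x axis) and in the skin (y axis), for migrated over nonmigrated cells on the left and migrated over steady-state node cells on the right. Filled points were called at both sites, crosses mark genes with all skin nonmigrated counts at 0, whose fitted value is no bound, and the dotted line marks equal change. All tested members lie above 0 in the joint on the left, and Trav3-1 and Trav13-4-dv7 are called higher at both sites on the right.

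The genes that assemble and carry the signal of the receptor moved with it in part. Of 20 listed signalling and coreceptor genes (the CD3 chains and Cd247, the coreceptors, Lck, Zap70, Lat and others), 17 were called higher in joint migrated than in joint nonmigrated cells and 14 in skin migrated than in skin nonmigrated cells, with median log2 fold changes of 2.67 and 1.24. Fyb, Lcp2 and Ptprc, which other leukocytes also express, were not called in the joint. Member CPM per summed CPM of Cd3d, Cd3e and Cd3g, which encode CD3 chains of the alpha and beta receptor complex, lay between 1.86 and 2.25 in 15 libraries. In the 3 skin nonmigrated libraries this ratio was 0.902, 1.077 and 1.02, below every other library. The constant genes of the alternative gamma and delta chains moved beside it. Trdc, Tcrg-C1, Tcrg-C2 and Tcrg-C4 summed to 2.29, 2.02 and 2.09 times Trac in skin nonmigrated cells, against 0.361 to 0.420 times Trac in the joint nonmigrated libraries. The ratio was 0.406 to 0.639 in both migrated groups and 0.0941 to 0.177 in the steady-state nodes. All 4 were called higher in joint migrated than in joint nonmigrated cells and in both migrated groups than in their steady-state nodes, but in the skin the only call against nonmigrated cells was Tcrg-C1, which fell by 1.04 on the log2 scale (± 0.41 SE, edgeR adjusted p = 0.0464).

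The ratio of the coreceptor genes Cd4 and Cd8a, which mark helper and cytotoxic T cells but are also expressed by some myeloid and dendritic cells, differed among the groups. Cd4 over Cd8a was 7.93, 6.46 and 7.69 in joint nonmigrated and 6.55, 4.80 and 5.58 in skin nonmigrated cells. It was 2.01, 1.61 and 2.89 in joint migrated, 1.98, 1.39 and 1.05 in skin migrated and 0.565 to 0.787 in steady-state cells. The nonmigrated, migrated and steady-state libraries did not overlap in this ratio.

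Against the steady-state node, few members were called in the joint, and those called in the skin were mostly lower. Of 89 tested members, 3 were called higher and 1 lower in joint migrated cells, where 16.9% and 7.31% of all 17107 genes tested were called in those directions and 24.2% in either. In skin migrated cells 2 were called higher and 20 lower, where the shares of all genes were 21.5% and 15%, and 36.5% in either direction. At an adjusted p under 0.001 the members called were 2 in the joint and 3 in the skin, against 15.9% and 25.1% of all genes. The 20 lower members were 19 Trav genes and the pseudogene Trbv24. Median log2 fold changes of the tested members were -0.07 in the joint and -0.63 in the skin. Skin migrated libraries (19239531 to 22378238 assigned counts) were all shallower than skin steady-state ones (28577566 to 40055171). Depth and group cannot be told apart in that comparison, whereas the depths of the joint groups overlapped. Trac differed by 0.03 ± 0.12 on the log2 scale in the joint (edgeR adjusted p = 0.857) and by -0.52 ± 0.12 in the skin (adjusted p = 0.00189), short of the required 2-fold change. The steady-state nodes of joint and skin differed in 0 members (0 also by the DESeq2 Wald test), where 3.89% of all genes were called. An unadjusted p under 0.05 was found for 26 of 89 members, against 21.7% of all genes.

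Trav3-1 and Trav13-4-dv7 were called higher in migrated than in steady-state cells at both sites. Trav3-1 was at 2.36, 3.05 and 3.22 CPM in joint migrated and 0.630, 0.474 and 0.479 CPM in joint steady-state cells, a rise of 2.43 ± 0.31 on the log2 scale (SE; edgeR adjusted p = 2.35e-05). In the skin it was at 2.04, 1.65 and 1.38 against 0.868, 0.5002 and 1.104 CPM (1.13 ± 0.31, adjusted p = 0.00621). The groups did not overlap, but the skin call was lost without skin migrated replicate 1 (0.91) or skin steady-state replicate 2 (0.80). Trav13-4-dv7 was at 8.88, 6.34 and 3.31 CPM in joint migrated and 2.05, 1.80 and 1.57 CPM in joint steady-state cells (1.77 ± 0.31, adjusted p = 0.000357), and at 4.30, 3.25 and 5.43 against 2.08, 1.91 and 1.96 CPM in the skin (1.21 ± 0.31, adjusted p = 0.00421). Again no library of the one group reached the other, and the skin call was lost without skin migrated replicate 3 (0.97). Because Trav13-4-dv7 can join the delta chain as well, its reads cannot be assigned to alpha chains alone, and the gamma and delta constant genes were called higher in the same comparisons. The Trav13-4-dv7 exons were distinct from other receptor genes over 70.3% of their length and those of Trav3-1 over 97.6%.

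The other calls in this comparison were Trav15d-1-dv6d-1, higher in joint migrated cells (log2 fold change 1.70 ± 0.47, edgeR adjusted p = 0.00827), and Trav16d-dv11, which was lower there (-1.22 ± 0.33, adjusted p = 0.00778). Trav15d-1-dv6d-1 was distinct over 17.9% of its length only, so its count is uncertain. In skin migrated cells the lower members with the smallest adjusted p were Trav14d-3-dv8 (-1.63 ± 0.28, adjusted p = 0.000217), Trav9-2 (-1.30 ± 0.23) and Trav14n-3 (-1.74 ± 0.31). Trav14d-3-dv8 was at 1.68, 1.15 and 1.38 CPM in skin migrated and 4.23, 5.48 and 4.07 CPM in skin steady-state cells, with no overlap.

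By share of Trbv counts, which takes no account of exon length, Trbv2 ranked first in tissue. Trbv13-2 ranked first in the steady-state nodes, at 9.88% to 11.4% of Trbv counts against 8.62% to 13.52% in tissue. Trbv2 held 15.9%, 20.4% and 22.2% of Trbv counts in joint nonmigrated cells and 18.2%, 16.2% and 17.7% in skin nonmigrated cells. It held 10.9%, 12.6% and 15.7% in joint migrated and 12.7%, 11.49% and 9.20% in skin migrated cells. The steady-state nodes had 7.46%, 6.37% and 6.0% (joint) and 6.15%, 7.00% and 6.25% (skin). The order nonmigrated, migrated, steady state held at both sites with no overlap of libraries, although joint migrated replicate 3 (15.7%) and joint nonmigrated replicate 1 (15.9%) were close, with 95% Clopper-Pearson intervals of 14.9% to 16.5% and 13.1% to 19.2%. Trbv2 had the highest share of all Trbv genes in all 6 nonmigrated and 4 of 6 migrated libraries, and Trbv13-2 in the other 2 migrated and all 6 steady-state libraries. These ranks depend on exon length, which was 560 bp for Trbv2 and 340 bp for Trbv13-2. Per kilobase, the group mean of Trbv2 exceeded that of Trbv13-2 in nonmigrated cells (joint 9.09 against 7.86 CPM, skin 13.8 against 12.35 CPM). Joint nonmigrated replicate 1 (92 counts of Trbv2 against 78 of Trbv13-2) and skin nonmigrated replicate 3 (86 against 60) had the reverse order per kilobase. In migrated cells Trbv13-2 was the higher (joint 70.8 against 47.1 CPM, skin 66.2 against 38.1 CPM).

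The mean share of Trbv2 was lower in migrated than in nonmigrated cells by 6.42 points in the joint and 6.25 points in the skin, while its level in CPM rose in both comparisons. Its share was higher in migrated than in steady-state cells by 6.47 and 4.65 points. In level, Trbv2 was at 27.8, 24.7 and 26.6 CPM in joint migrated and 14.6, 12.7 and 14.8 CPM in joint steady-state cells, a log2 difference of 0.90 ± 0.13 (SE) that had a small adjusted p (edgeR, 5.68e-05) but was under the required 2-fold change. The skin difference was 0.29 ± 0.13 (adjusted p = 0.057). Since these shares singled Trbv2 out, they are given as a description with no test of their own.

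**Figure D3:**
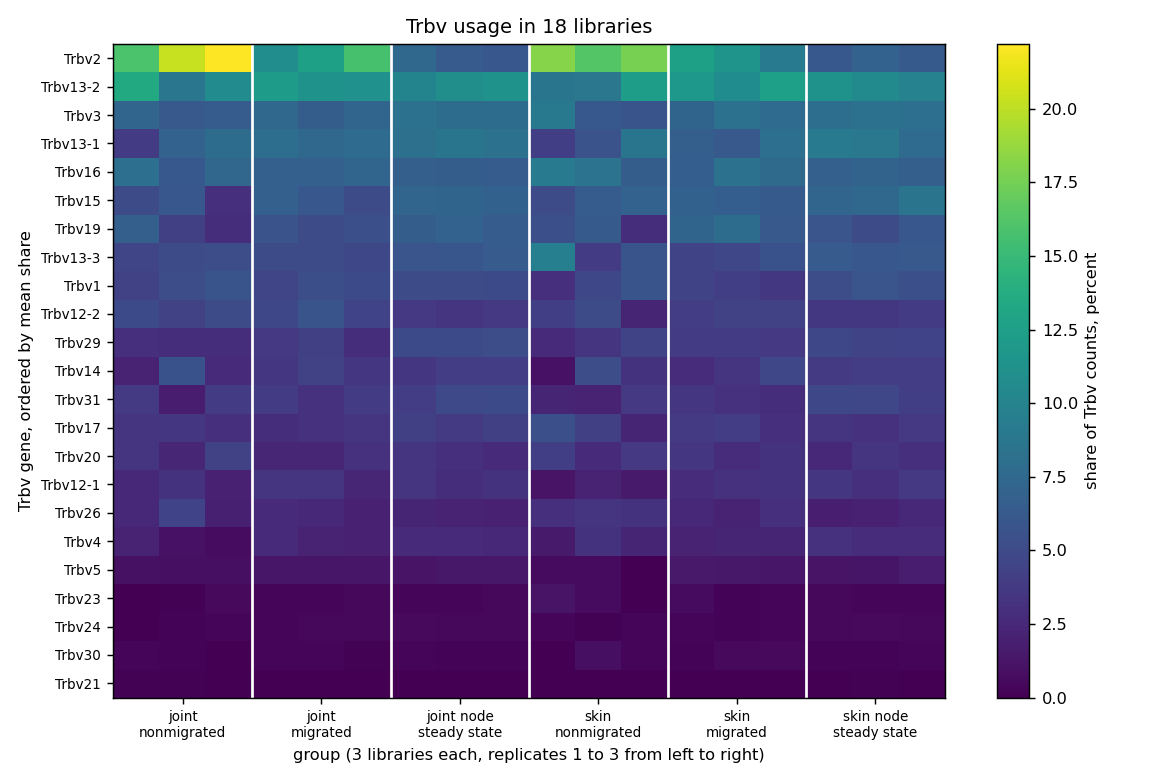
Each cell is the share of all Trbv counts (percent, colour scale from 0) held by 1 of 23 Trbv members in 1 library, with genes ordered by mean share from top to bottom and 3 libraries per group. The Trbv2 row is brightest in the nonmigrated groups (up to 22.2%) and dimmer in the steady-state nodes (6.0% to 7.46%).

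Few other V genes were separated between migrated and nonmigrated cells at both sites. The libraries did not overlap for 8 of 64 Trav members (12.5%) and 3 of 23 Trbv members (13%) in the joint, and for 11 Trav (17.2%) and 5 Trbv (21.7%) in the skin. Beside Trbv2, the genes separated in the same direction at both sites were Trav8n-2 (higher by 0.65 and 0.49 points in migrated cells) and Trbv5 (higher by 0.40 and 1.02 points). In nonmigrated libraries these shares rest on 1 to 3 counts of Trav8n-2 and on 0 to 10 counts of Trbv5. Between migrated and steady-state cells, 20 Trav (31.2%) and 12 Trbv members (52.2%) did not overlap in the joint, and 17 Trav (26.6%) and 11 Trbv (47.8%) in the skin. At both sites, shares above the steady-state node were those of Trbv2, Trav13-4-dv7, Trav3-1 and Trbv12-2, and shares below it were those of Trav14d-3-dv8, Trav14-2, Trav14-3, Trav9-2, Trbv13-3, Trbv15, Trbv21, Trbv29 and Trbv31. Of these, Trbv21 had 0 to 2 counts in each migrated library, under the floor of 3 counts, and 4 to 12 in each steady-state library. The shares of a class add up to a fixed total, so a larger share of one gene lowers those of the others. In level, 0 of 22 tested Trbv genes were called in the joint and 1, the unlisted Trbv24, was lower in the skin. Of 64 tested Trav genes, 3 were called higher and 1 lower in the joint, and 2 higher and 19 lower in the skin. The lower Trbv shares therefore describe usage and not a called fall in level.

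Alpha V usage was spread over more genes. The highest Trav share in a library was 8.13% to 10.0% among joint and 8.98% to 9.27% among skin nonmigrated libraries, and 4.38% to 5.38% in the steady-state nodes. The gene in this place was Trav14-1 in 4 of 6 nonmigrated libraries, Trav13-4-dv7 in 4 of 6 migrated libraries and Trav16 in all 3 joint steady-state libraries. Trav13-4-dv7 held 8.10%, 7.28% and 4.65% of Trav counts in joint migrated and 6.08%, 4.77% and 7.60% in skin migrated cells, against 1.67% to 2.66% in the steady-state nodes. In nonmigrated cells its share was 4.88%, 4.57% and 2.53% (joint) and 5.11%, 2.99% and 2.40% (skin), which rests on 4 to 16 counts per library.

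Trav3-1 held 3.25%, 4.86% and 3.11% of Trav counts in joint nonmigrated and 3.51%, 2.24% and 4.19% in skin nonmigrated cells. It held 2.15%, 3.50% and 4.52% in joint migrated and 2.88%, 2.42% and 1.93% in skin migrated cells. The steady-state range was 0.437% to 1.03%, below every library from an inflamed mouse. Nonmigrated and migrated cells overlapped at both sites, with 7 to 17 counts behind each nonmigrated share.

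**Figure D4:**
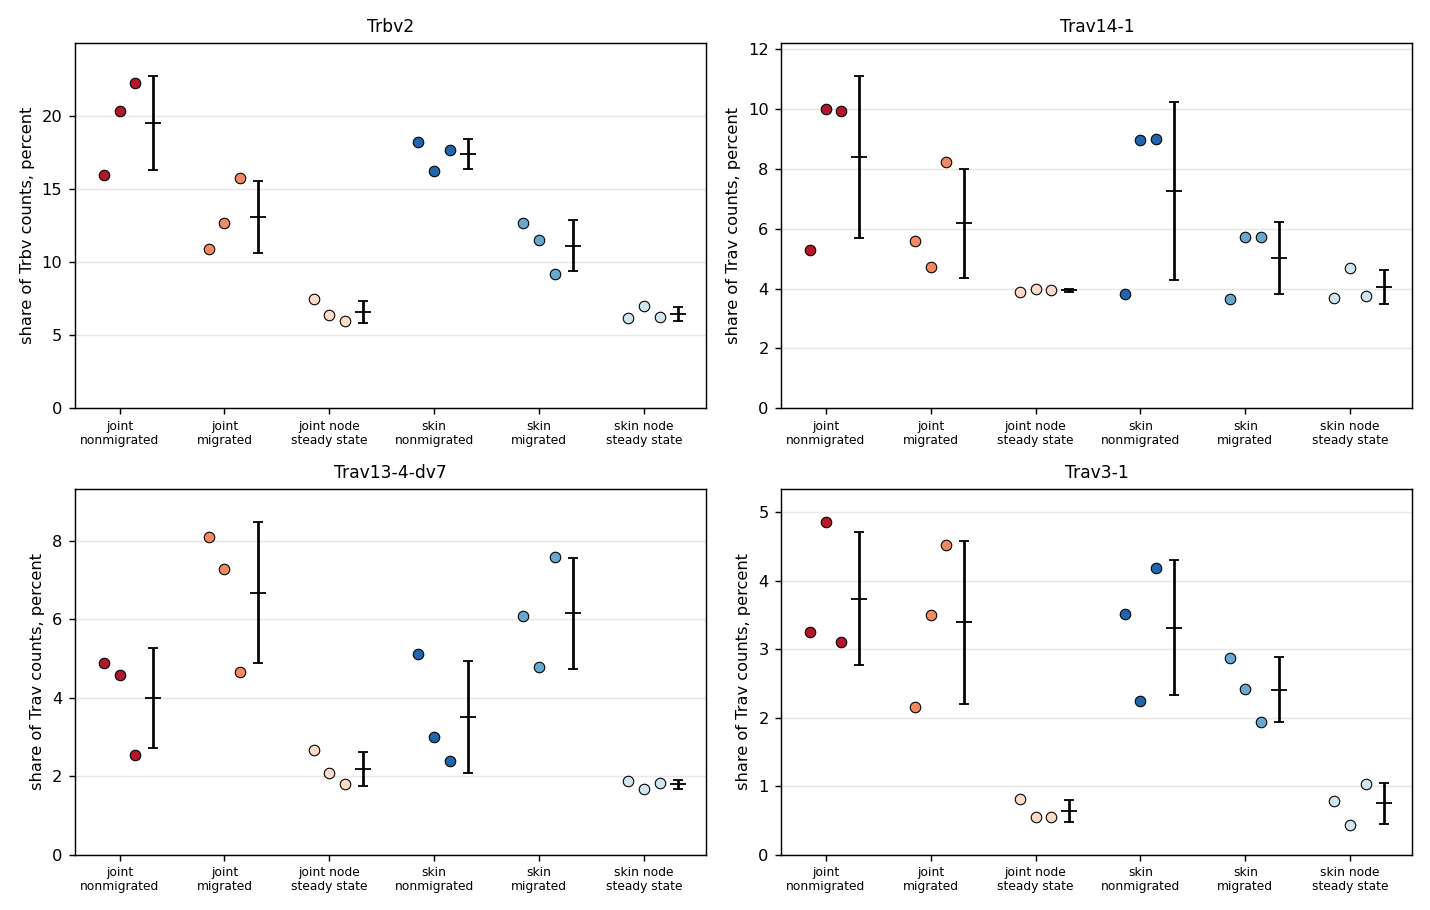
Each point is 1 library, and the bars are the group mean ± SD (n = 3) of the share of Trbv2 among Trbv counts and of Trav14-1, Trav13-4-dv7 and Trav3-1 among Trav counts (percent). Trbv2 steps down from nonmigrated to migrated to steady-state cells. Trav3-1 is lowest in the steady-state nodes (0.437% to 1.03%), and Trav13-4-dv7 is lower there (1.67% to 2.66%) than in migrated cells but overlaps with nonmigrated cells.

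The Trav14 family encodes Vα2, a chain of the transferred OT-II receptor. Since the donors are not described as carrying Kaede, transferred cells may lie outside the Kaede red+ gate. The shares of Trav14 and Trbv12 genes are therefore no measure of transferred cells. The family, of which 5 of 9 annotated genes were members, held 13.8%, 18.6% and 15.8% of Trav counts in joint nonmigrated and 15.3%, 13.7% and 15.7% in joint migrated cells. It held 11.502%, 14.46% and 20.4% in skin nonmigrated and 12.6%, 12.8% and 12.7% in skin migrated cells. The steady-state nodes had 15.1%, 17.7% and 18.1% (joint) and 18.7%, 20.2% and 16.7% (skin). The joint groups overlapped in the share of the family, and skin migrated libraries lay below skin steady-state ones. Within the family, Trav14-1 held 5.28%, 10.0% and 9.92% in joint nonmigrated, 5.59%, 4.73% and 8.23% in joint migrated and 3.88% to 3.97% in joint steady-state cells. The other 4 members together held 5.84% to 9.70% in the joint libraries from inflamed mice and 11.2% to 14.2% in the joint steady-state ones. Trav14-1 in the skin was at 3.83%, 8.98% and 8.98%, then 3.65%, 5.73% and 5.73%, then 3.67%, 4.70% and 3.76% in nonmigrated, migrated and steady-state cells, and these groups overlapped.

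Trbv12-1 and Trbv12-2 (Vβ5) together held 7.63%, 7.62% and 7.22% of Trbv counts in joint nonmigrated, 8.23%, 9.12% and 6.86% in joint migrated and 7.02%, 6.27% and 6.97% in joint steady-state cells. In the skin they held 5.34%, 7.29% and 3.901%, then 6.85%, 7.57% and 7.52%, then 7.12%, 6.58% and 7.48% in the same order of groups. Migrated libraries overlapped with the other groups at both sites, while joint nonmigrated libraries lay above the joint steady-state ones by a narrow gap. Trbv12-2 made up 57.4% to 71.2% of this sum among joint nonmigrated libraries. Joint migrated libraries had 58.1% to 65.3% and joint steady-state ones 52.6% to 54.3%. In skin migrated cells it was 56.8% to 58.4% and in skin steady-state cells 51.0% to 54.3%, so that migrated libraries lay above their steady-state node at both sites. In level, Trbv12-2 rose with migration by 3.01 ± 0.49 on the log2 scale in the joint (edgeR adjusted p = 0.000297) and by 1.97 ± 0.48 in the skin (adjusted p = 0.00442), and Trbv12-1 by 3.24 ± 0.44 and 2.82 ± 0.45.

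**Figure D5:**
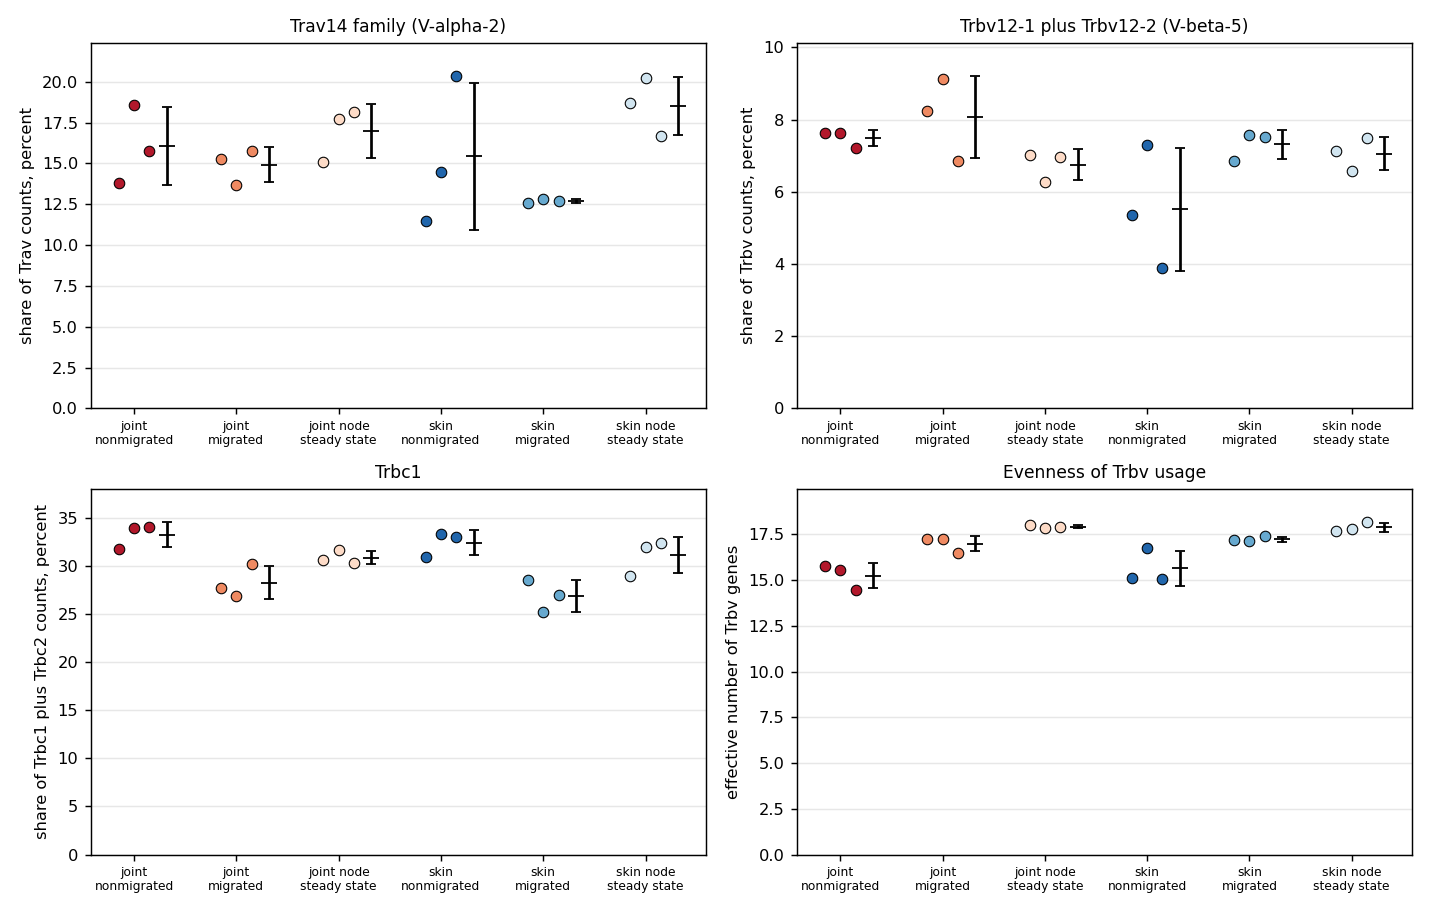
Each point is 1 library, and the bars are the group mean ± SD (n = 3) of the Trav14 family share of Trav counts, the Trbv12-1 plus Trbv12-2 share of Trbv counts, the Trbc1 share of beta constant counts (all in percent) and the effective number of Trbv genes. The Trav14 share overlaps among the joint groups, the Trbv12 share of migrated cells overlaps with that of the other groups of its site, and the effective number is lowest in nonmigrated cells (14.4 to 16.7).

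Trbc1 was the less used beta constant gene in every library. It held 31.7%, 33.9% and 34.01% of beta constant counts in joint nonmigrated cells and 27.6%, 26.9% and 30.2% in joint migrated cells. In the skin it held 30.9%, 33.3% and 32.9% in nonmigrated and 28.5%, 25.2% and 26.9% in migrated cells. The migrated libraries lay below the nonmigrated ones at both sites. Steady-state libraries held 28.9% to 32.4%. Reads in the shared sequence of Trbc1 and Trbc2 map to both genes, so these shares describe the reads that could be assigned.

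The evenness of V usage was described by the effective number of genes, the number of equally used genes that would give the same Shannon entropy. For Trbv it was 15.7, 15.5 and 14.4 in joint nonmigrated, 17.2, 17.2 and 16.5 in joint migrated and 18.01, 17.9 and 17.9 in joint steady-state cells. In the skin it was 15.1, 16.7 and 15.1, then 17.2, 17.1 and 17.4, then 17.7, 17.8 and 18.2. No library of one group overlapped with another group of the same site. This number is computed from the same shares as those of Trbv2 above, and a gene with a large share lowers it. It was not computed without Trbv2, so it is no separate result from the Trbv2 shares. For Trav it ranged from 38.6 to 44.3 among joint nonmigrated libraries and from 34.2 to 36.8 among skin nonmigrated ones, against 46.9 to 47.5 and 44.99 to 47.4 in migrated cells and 48.6 to 50.1 in the steady-state nodes. The Trav values of nonmigrated cells rest on 167 to 514 Trav counts per library, against 1362 to 5064 elsewhere. With every library thinned to 167 Trav counts, the means were 36.8 in joint nonmigrated and 38.7 in joint migrated cells, whose libraries then overlapped (33.4 to 41.0 and 38.0 to 39.2), and 33.4 and 38.7 in the skin groups, which did not overlap. With libraries thinned to 487 Trbv counts, the order of the Trbv means was kept (15.1, 16.7 and 17.5 in joint nonmigrated, migrated and steady-state cells).

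Invariant T cell receptors could not be followed in these counts. Traj18, the joining segment of invariant natural killer T cells, and Traj33, that of mucosal-associated invariant T cells, had 0 counts in all 18 libraries, and Trav11 and Trav11d, the V genes of the former, had 2 counts each. Of the 100-base stretches of Trav11 and Trav11d, 0.41% and 0% were found in no other receptor gene, so reads from them could hardly be assigned, and the fully distinct copy Trav11n had 49 counts, 0 of them in nonmigrated libraries. Trav1, the V gene of mucosal-associated invariant T cells, which other T cells can also use, had 2, 4 and 2 counts in joint nonmigrated and 40, 28 and 26 in joint migrated cells (log2 fold change 3.00 ± 0.57, edgeR adjusted p = 0.00084). It had 0, 2 and 1 counts in skin nonmigrated and 8, 5 and 14 in skin migrated cells, and 14 to 26 in steady-state libraries, which overlapped with joint migrated cells. With no J gene among the members, V usage here describes V segments alone and not joined receptors.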

How the data were processed

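CD45+ cells (viable and Kaede red+ in the inflamed groups) were sorted and sequenced as paired 100 bp reads. The authors deposited 1 table of raw counts per gene for 18 libraries, made with FastQC, Trim-Galore!, TopHat2 (mm10, Ensembl 87 gene models) and HTSeq in its default mode; versions and the strand setting are not given in the sources used here. HTSeq summary lines (5) were left out; reads without a unique alignment made up 9.24% to 12.7% and reads in no gene 0.0925% to 0.562% of the table total per library. Symbols, biotypes and exons came from GENCODE M21 (GRCm38), to which 49326 of 49585 rows matched, and exon sequences from the same build.

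The whole table was fitted with edgeR 4.0.16 (R 4.3.3, limma 3.58.1; quasi-likelihood F test, TMM scaling, filterByExpr with a minimum count of 10), once over the 12 inflamed libraries and once over the 12 lymph node libraries, with group as the only factor. A call needed an adjusted p (Benjamini-Hochberg) under 0.05 and a change of more than 1 on the log2 scale, up or down. The SE of a change is its size over the square root of F. Scripts were tested on simulated data. Summed CPM, shares of V counts (95% Clopper-Pearson intervals, which cover counting error only, as does the floor of 3 counts) and effective numbers were given per library with no test. Samples were grouped by their labels. Each is a pool of mice, so p-values measure the spread between these pools. Same-group libraries differed beyond counting noise (chi-square per degree of freedom 16.2 to 129.6).

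The members, gene lists and the rule for named genes were chosen with earlier results of these data known. Named genes were the constant genes, the V genes of OT-II and of invariant T cells, the 5 Trav and 5 Trbv genes with the highest mean CPM per kilobase, the 3 called members per comparison and direction with the smallest adjusted p, and V genes whose shares did not overlap at both sites. Genes outside it (Trav7-3, Trav17, Trav6d-5 and members listed beside a count) were named after their values were seen. Trbv2 met the rule, but its levels were added after their values were seen. Alternatives were DESeq2 1.42.0 (size factors, Wald test), other filters, thresholds and sets of samples, a replicate block, other V gene sets, per-kilobase shares and thinning.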

Additional observations from a re-analysis of the deposited data

Results flagged for a closer look

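For 6 genes that are not alpha or beta receptor genes but belong to the same receptor complex or to its gamma and delta counterpart, the change with migration differed between joint and skin by the interaction test of edgeR. The joint change minus the skin change was 1.73 ± 0.48 (SE, log2) for Cd247 (adjusted p = 0.0485), 1.91 ± 0.48 for Cd3e (adjusted p = 0.0348) and 1.99 ± 0.53 for Cd3g (adjusted p = 0.0412). It was 4.04 ± 0.60 for Tcrg-C1 (adjusted p = 0.00378), 2.48 ± 0.53 for Tcrg-C2 (adjusted p = 0.0177) and 3.26 ± 0.56 for Trdc (adjusted p = 0.00669). Trdc was at 9.76, 14.7 and 17.3 CPM in joint nonmigrated and 140, 141 and 47.2 CPM in skin nonmigrated cells, with no overlap.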

How the results depend on the processing

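No log2 fold change of a named gene that was called in the main or the alternative run changed sign between them. Sign changes of genes called in neither run were not recorded. Of the group-level results, 279 alternatives kept their side of the threshold or their spread, 8 were stronger, 11 weaker and 23 moved. An adjusted p under 0.001 gave 49 called members in the joint and 21 in the skin for migrated against nonmigrated cells, 0 for joint against skin nonmigrated cells, and 2 (joint) and 3 (skin) against the steady-state nodes. Joint against skin nonmigrated cells (7 called) gave 14 with the DESeq2 Wald test, 15 with all 18 samples in 1 fit and 0 with only the groups compared, where fewer members were tested. Leaving out 1 library gave 0 to 22: 4 without skin nonmigrated replicate 1, 0 without replicate 2, 22 without replicate 3, and 1 and 4 without joint nonmigrated replicates 1 and 2. The joint minus skin migration change (0 called) gave 4 with DESeq2, 1 with no filter, 7 with all 18 samples and 0 to 16 over the left-out libraries (16 without skin nonmigrated replicate 3, 1 without joint nonmigrated replicate 3). The causes were not tested. Left-out libraries gave 73 to 80 calls in the joint and 58 to 68 in the skin for migrated against nonmigrated cells, and 4 to 6 and 17 to 21 against the steady-state nodes.

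A pairing of same-numbered libraries was not established, since not every correlation passed 0.1: the correlation of their deviations was 0.01, 0.10 and 0.19 for the joint groups and 0.16, 0.09 and 0.16 for the skin groups. The replicate block gave 2 calls for joint against skin nonmigrated cells and changed no other count by over 1.5 times (79 and 64 for migrated against nonmigrated cells).

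By assigned library size the skin steady-state sum was 1815 CPM. Per kilobase, the Trav14 share in skin migrated cells was 12.5%, the Trbv12 share in joint nonmigrated cells 7.90%, the effective Trav number 47.6 (joint migrated) and 50.3 (skin steady state), and the effective Trbv number 16.1 (joint nonmigrated) and 17.5 (skin migrated). With no minimum count the effective Trav number was 48.6, 50.7 and 51.6 (joint migrated, joint and skin steady state). With functional genes only it was 47.0 (joint migrated), and for Trbv 17.6, 17.0 and 17.6 (joint steady state, skin migrated, skin steady state). Thinned, the Trav number was 36.8, 38.7 and 40.7 in joint nonmigrated, migrated and steady-state cells and 33.4, 38.7 and 40.8 in the skin groups, and the Trbv number 17.5, 16.9 and 17.5 (joint steady state, skin migrated, skin steady state). The V shares of nonmigrated cells rest on 167 to 514 Trav counts per library, which limits their precision.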

Other observations

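Genes of receptor gene rearrangement were measured in joint nonmigrated cells. Rag1, which cuts receptor genes for joining, was at 8.71, 5.02 and 45.6 CPM in joint nonmigrated and at 0 to 0.0483 CPM in skin nonmigrated and both migrated groups, and at 4.65 to 8.82 CPM in the joint and 0.572 to 2.28 CPM in the skin steady-state node. Dntt, which adds bases at the joints, was at 8.60, 10.0 and 28.4 CPM in joint nonmigrated and at 1.99, 2.20 and 2.66 CPM in joint migrated cells. Of the 4 listed recombination and pre-receptor genes, 3 were tested (Rag1, Rag2 and Dntt) and all 3 were called lower in joint migrated than in joint nonmigrated cells, and in both migrated groups than in their steady-state nodes. Ptcra, the partner of the beta chain in T cell precursors, was at 0.0277, 0.0335 and 0.148 CPM in joint nonmigrated cells and was not tested. The 4 B cell precursor markers, which include Rag1, summed to 17.2, 10.1 and 74.7 CPM in joint nonmigrated cells and to 0.0244 to 0.152 CPM in joint migrated cells.

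Natural killer cell markers (Ncr1, Klrb1c, Klra8 and Eomes) moved beside the receptor genes in part: all 4 were called higher in joint migrated than in joint nonmigrated cells, and all 4 in each migrated group than in its steady-state node, but 1 of 4 in skin migrated than in skin nonmigrated cells. The 5 B cell markers were called higher with migration at both sites and lower in migrated than in steady-state cells at both sites, with sums of 2490 to 4135 CPM in the steady-state nodes and 106 to 927 CPM in migrated cells. The 4 dendritic cell markers had 3 genes called higher with migration in the joint, and 3 higher and 1 lower in the skin. The 9 Trav members whose names carry dv held 12.9% to 17.5% of Trav counts in joint nonmigrated and 16.6% to 21.2% in joint migrated cells, which overlapped, and 16.7% to 18.6% and 18.9% to 22.1% in the same skin groups, which did not. In the steady-state nodes they held 14.4% to 16.3% (joint) and 15.6% to 16.2% (skin), below every migrated library of the same site. Trav13-4-dv7 is 1 of these 9, and its share alone was above the steady-state node by 4.50 (joint) and 4.36 points (skin). Trav14d-3-dv8 went the other way, by -1.28 and -2.14 points. The sum was not taken without Trav13-4-dv7, so the difference is not shown to be a trait of the dv genes as a class.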
